A study of Mus musculus with 6 samples.

Results

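The TRIM (tripartite motif) genes encode a family of mostly ubiquitin E3 ligases, in which a RING domain, one or a pair of B-boxes and a coiled coil are followed by a C-terminal part that differs between members. Several of them are switched on by interferons and act in innate immunity: TRIM25 ubiquitinates the RNA sensor RIG-I, TRIM21 is a cytosolic antibody receptor, and TRIM56 and TRIM30α have been linked to STING, the adaptor encoded by Tmem173. Others work in chromatin, muscle, red blood cells or the gut lining. The members described here are the protein-coding genes of the deposited table whose name is Trim followed by a number and at most 1 letter, which makes 68 genes of the 54532 listed (22046 of them protein-coding). Of these 68, 15 formed a list of interferon-inducible members (Trim5, Trim12a, Trim12c, Trim14, Trim21, Trim25, Trim26, Trim30a to Trim30d, Trim34a, Trim34b, Trim38 and Trim56), and the other 53 were the members they were compared with.

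RNA-seq was performed on whole colon tumors of 3 Tmem173fl/fl and 3 Tmem173iΔmye mice of the AOM+DSS-L groups, in which tumors were induced with the carcinogen azoxymethane (AOM) and 3 cycles of the colitis-inducing agent dextran sodium sulfate (DSS). Both groups carried loxP-flanked Tmem173 and both received tamoxifen (TAM) after the DSS cycles, and only the Tmem173iΔmye mice (Tmem173fl/flLyz2-Creert2) carried the TAM-inducible Cre that the Lyz2 promoter drives in myeloid cells. The Tmem173fl/fl samples carry the label WT, and the age of the mice in these groups was not given in the sources used here. The comparison asks how the tumor transcriptome differs when myeloid STING is deleted after tumors have formed. Nothing in the labels says whether the 3 tumors of a group came from separate litters or cages, so p-values measure the spread between these tumors.

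The tumors had 15329810 to 16533732 counts each, and TRIM genes took 2301 to 2384 counts per 1000000 (CPM) of these totals. A total of 16426 genes with a mean FPKM (fragments per kilobase of gene, scaled for depth) of at least 0.5 were tested with edgeR's quasi-likelihood test, and fold changes are given as Tmem173iΔmye relative to Tmem173fl/fl. Tmem173 itself, with a log2 fold change of 0.0015 (SE 0.24) and overlapping groups, gives no check of the genotype labels in RNA of all tumor cells. The 8 epithelial markers were measured in all tumors, with 24041 to 36997 counts of Epcam. Tmem173iΔmye replicate 1 stood apart: it was highest of the 6 tumors for 14 of 15 interferon reference genes and for 10 of 10 interferon-γ reference genes, and it held 50 counts of Ifng, against 0 to 3 in each of the other tumors. Y-linked genes had 2655 to 3547 counts in 1 Tmem173fl/fl tumor (replicate 1) and 2 Tmem173iΔmye tumors (replicates 1 and 2), and 0 to 2 in the remaining tumors, so sex was not balanced. In whole tumors, fewer cells of a type and less RNA per cell cannot be told apart.

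Interferon target genes often carry in their promoter the interferon-stimulated response element, whose core is a pair of GAAA letters a fixed step apart. RefSeq promoters (GRCm38.p6, the build of the files, 250 bases before to 50 after each annotated start) were found for 53 of the 68 members, 14 of 15 on the interferon-inducible list and 39 of 53 others. The pattern GAAA, any 2 bases and GAAA, read on both strands, was present in 8 of the 14 promoters of listed members (57.1%), in 1 of 39 promoters of other members (2.56%) and in 1079 of all 27025 genes with a promoter (3.99%). Of the 10 listed members with a promoter that were over the expression filter, 8 held them (80.0%), and Trim25 and Trim56 did not. The 8 listed members with a match and the single other member, Trim2, are shown here, since the comparison of promoter matches rests on them. Each is given as 30 bases around the match on the strand of the gene, with the matched letters in capitals. TTTC on the strand of the gene is GAAA on the opposite strand.
Trim5 (chr7:104288136-104288165, minus): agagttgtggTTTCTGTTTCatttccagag
Trim12a (chr7:104315466-104315495, minus): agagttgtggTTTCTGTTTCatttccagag
Trim12c (chr7:104353359-104353388, minus): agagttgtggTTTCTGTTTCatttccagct
Trim30a (chr7:104465210-104465239, minus): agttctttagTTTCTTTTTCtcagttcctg
Trim30d (chr7:104507871-104507900, minus): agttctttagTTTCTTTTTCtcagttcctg
Trim34a (chr7:104244457-104244486, plus): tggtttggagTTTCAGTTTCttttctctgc
Trim21 (chr7:102565447-102565476, minus): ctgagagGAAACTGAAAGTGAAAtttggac
Trim26 (chr17:36836979-36837008, plus): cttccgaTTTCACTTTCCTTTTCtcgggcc
Trim2 (chr3:84212791-84212820, minus): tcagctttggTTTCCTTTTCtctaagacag

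The Trim5 and Trim12a stretches were identical in 30 of 30 bases, as were those of Trim30a and Trim30d, and Trim12c had 28 of 30 bases in common with the first pair. The match lay within 50 bases of the annotated start in each of these genes except Trim26, where it began 160 bases before it. Trim30a has a second annotated start, with the match beginning 2 bases after it. Trim21 and Trim26 each held a pair of overlapping matches, which gives the longer runs of capitals. A second pattern, TTCNNNGAA (the letters of an interferon-γ element), was in 2 of 14 listed and 4 of 39 other members and in 9.55% of all promoters, in no TRIM promoter together with the first pattern. Such matches describe letters and show no binding.

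By level, the family spread widely over these tumors. A total of 45 members were over the filter, 11 on the interferon-inducible list and 34 others, and 23 were under it. Trim28, the KRAB zinc finger corepressor also called KAP1, was the highest member, with an FPKM of 83.0 ± 11.8 (SD, n = 3) in Tmem173fl/fl and 80.5 ± 7.61 (SD, n = 3) in Tmem173iΔmye tumors. Next by mean FPKM came Trim15 at 34.5 and Trim40 at 31.5, followed by Trim8 at 29.2, Trim25 at 26.8, Trim31 at 24.2 and Trim16 at 21.2. Trim15, Trim31 and Trim40 are neighbours on chromosome 17 and are known for expression in the intestine. The tumors of Trim15 spread across the values of Trim40, Trim8, Trim25 and Trim31, so the order of these neighbours is not resolved, whereas the lowest Trim28 tumor was above every tumor of any other member. Trim25 was the highest of the interferon-inducible list, followed by Trim26 at 14.7 and Trim12c at 9.85, and the other listed members over the filter had a mean FPKM between 2.42 (Trim5) and 6.66 (Trim56).

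**Figure D1:**
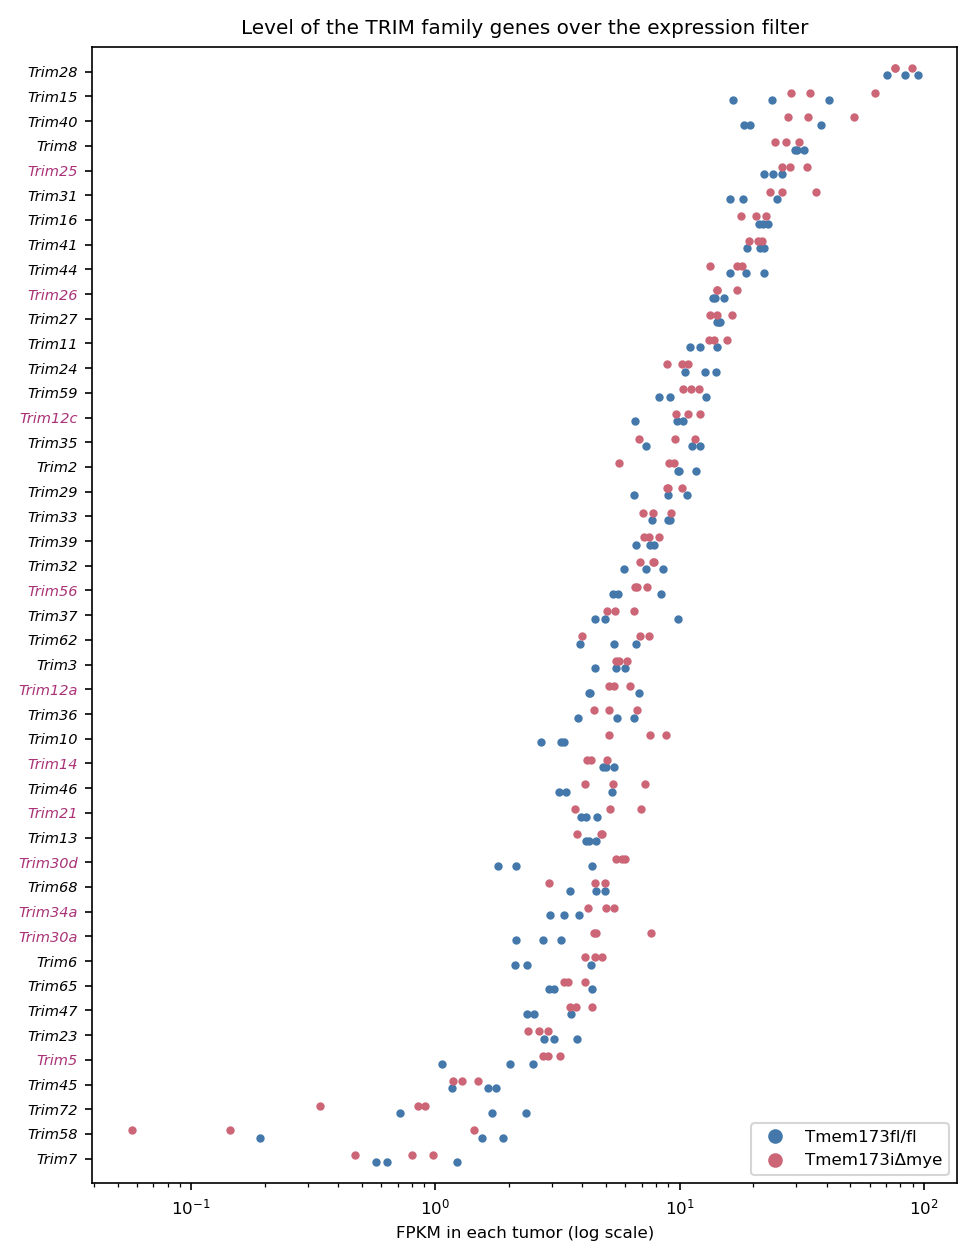
FPKM in each tumor (log axis) of the 45 TRIM genes over the filter, ordered by mean FPKM, with blue points for the 3 Tmem173fl/fl and red points for the 3 Tmem173iΔmye tumors and the interferon-inducible list in purple. Trim28 lies above all others in every tumor, and the red points of Trim10, Trim30a, Trim30d, Trim34a and Trim5 lie to the right of the blue ones.

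Between the groups, TRIM genes of the interferon-inducible list leaned higher in Tmem173iΔmye tumors and the other members did not lean either way. Of the 11 listed members tested, 10 were above 0 on the log2 fold change scale; their median was 0.29 and their range ran from -0.17 (Trim14) to 1.05 (Trim30d). Of the 34 other members tested, 18 were above 0, with a median of 0.03 and a range from -1.20 (Trim72) to 1.20 (Trim10). Among all genes tested, 49.4% were above 0 and the median was -0.0042. The difference between the medians was 0.27, and it was 0.09 without Tmem173iΔmye replicate 1, where the listed members had a median of 0.17 and 9 of them were above 0. With the presence of Y-linked counts as a term the difference was 0.16. A wider list that adds Trim6, Trim35 and Trim69 had 11 of 13 tested members above 0 and a median of 0.29. No test was made over the lists, since their members were chosen with earlier results known.

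By single genes, the smallest edgeR adjusted p-value of a TRIM gene was 0.742, so 0 passed 0.05, as did 0 of all 16426 genes (0.0%). DESeq2, run as an alternative, gave 28 genes in all an adjusted p-value under 0.05, 1 of them a TRIM gene, Trim10. At an unadjusted p-value under 0.05, 5 of the 45 TRIM genes tested were past this limit, against 6.14% of all genes. All of them were higher in Tmem173iΔmye tumors (Trim10, Trim30a, Trim30d, Trim34a and Trim31), against 3.23% of all genes, and 0 were lower, against 2.9%. The threshold of the study, a log2 fold change of 1 or more in size and an unadjusted p-value of at most 0.05, was passed upward by 3 of these (Trim10, Trim30a and Trim30d), against 1.26% of all genes, and downward by 0, against 0.864%. Every Tmem173iΔmye tumor was above every Tmem173fl/fl tumor for 5 TRIM genes (Trim5, Trim10, Trim30a, Trim30d and Trim34a), against 6.03% of all genes, and below for 1 (Trim2), against 6.47%. The share of TRIM genes that did not overlap upward (5 of 45) was thus above that background and the downward share (1 of 45) below it, with counts too small for more than a description.

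**Figure D2:**
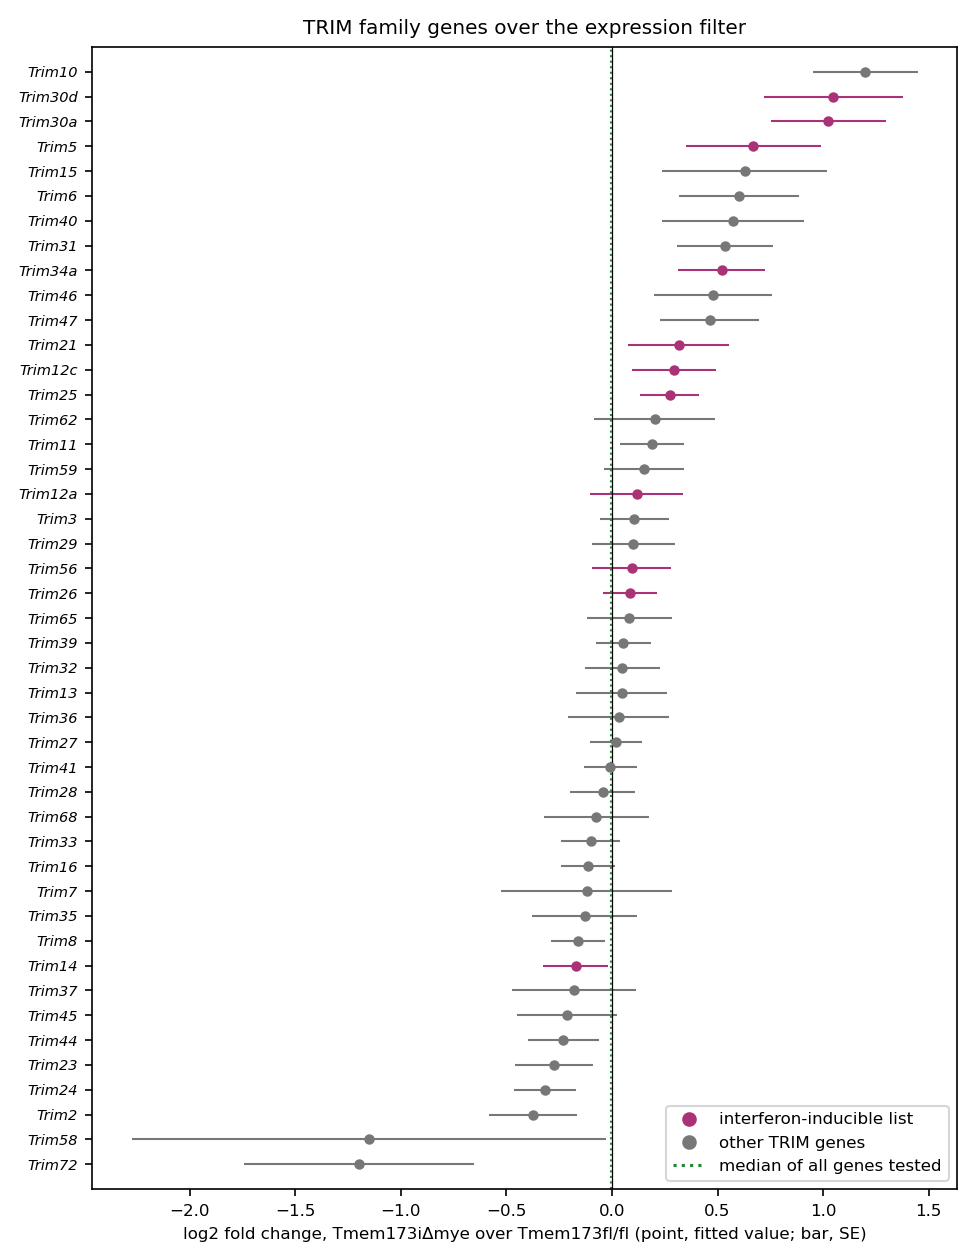
Fitted log2 fold change (point) with its SE (bar) of the 45 TRIM genes over the filter, Tmem173iΔmye over Tmem173fl/fl, in order of size, with the interferon-inducible list in purple, other members in grey and the median of all genes tested as a dotted line. The purple points sit from -0.17 to 1.05, with 10 of 11 right of 0, and the largest SE is that of Trim58.

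The listed members split by place in the genome. Trim6, Trim34a, Trim5, Trim12a, Trim34b, Trim12c, Trim30b, Trim30c, Trim30a and Trim30d lie side by side on chromosome 7 of GRCm38, from 104218793 (Trim6) to 104507849 (Trim30d), and all but Trim6 are on the interferon-inducible list. Of these 9 listed genes, 6 were tested, and all 6 were above 0, at a median log2 fold change of 0.59 that was 0.52 without Tmem173iΔmye replicate 1. The 5 listed members tested outside the cluster (Trim14, Trim21, Trim25, Trim26 and Trim56) had a median of 0.09, with 4 of 5 above 0 and 0 at an unadjusted p-value under 0.05. Their median was 0.04 without Tmem173iΔmye replicate 1 and 0.26 without Tmem173fl/fl replicate 2. This split was chosen after the values were seen.

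Trim30a encodes a restriction factor that in mice dampens Toll-like receptor signalling, and it lies on the minus strand at 104409025 to 104465193. It had 13.7, 11.3 and 8.82 CPM (scaled by TMM) in Tmem173fl/fl replicates 1, 2 and 3, and 31.4, 18.5 and 18.7 CPM in Tmem173iΔmye replicates 1, 2 and 3. The groups did not overlap, and Tmem173iΔmye replicate 1 was far above the others of its group. The log2 fold change was 1.02 (SE 0.27, unadjusted p = 0.00585, edgeR), and 0.73 without that tumor. Its neighbour Trim30d (minus strand, 104470014 to 104507849), a paralog, had 16.6, 8.0 and 6.84 CPM in the Tmem173fl/fl tumors and 21.9, 20.7 and 22.5 CPM in the Tmem173iΔmye tumors. Here the Tmem173iΔmye tumors were tight and the spread was among the controls, of which replicate 1 was closest to the other group. The log2 fold change of Trim30d was 1.05 (SE 0.33, unadjusted p = 0.0134), and it was 1.55 without Tmem173fl/fl replicate 1.

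Trim34a (plus strand, 104244457 to 104262234) had 10.2, 8.67 and 7.68 CPM in Tmem173fl/fl and 14.0, 13.0 and 11.0 CPM in Tmem173iΔmye tumors, which is 0.52 on the log2 scale (SE 0.21, unadjusted p = 0.0361). Its groups did not overlap, but they came close at 10.2 and 11.0 CPM. Trim5, the mouse relative of the capsid-binding retroviral restriction factor, had 9.43, 7.40 and 3.96 CPM and 12, 10.8 and 10.2 CPM, a log2 fold change of 0.67 (SE 0.32, unadjusted p = 0.0708). Its lowest control, replicate 3, set much of this difference, and the value was 0.39 without it. Trim12a had 40.1, 24.9 and 24.8 CPM against 36.4, 29.9 and 31.2 CPM, and its highest tumor was a control. Trim12c overlapped too, with 37.0, 38.3 and 24.6 CPM against 45.4, 40.8 and 36.2 CPM, and the log2 fold changes of these paralogs were 0.12 (SE 0.22) and 0.29 (SE 0.20). Trim6, the cluster gene that is not on the list, had 21.5, 11.6 and 10.4 CPM against 23.5, 20.2 and 22.2 CPM, the same shape as Trim30d, with a log2 fold change of 0.60 (SE 0.28, unadjusted p = 0.0681) that was 1.0 without Tmem173fl/fl replicate 1.

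The genes of the cluster are close relatives, which limits how well reads can be assigned. Of the 50-base stretches of its GENCODE transcripts, Trim34a shared 59.7% with other genes, chiefly Trim34b, and Trim34b 56.8%. Trim5 shared 36.6% and Trim12c 33.7%, mostly with each other and Trim12a, and Trim12a 10.5%, so these values are uncertain as single-gene values. Trim30a and Trim30d shared 5.98% and 7.49%, which is little for paralogs. Whether overlap of genes on opposite strands was resolved is not known, since the strand setting of the counting was not given. Trim14, for example, had 38.0% of its exon bases in common with other genes, among them Nans.

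Outside the cluster, Trim25 was the listed member with most counts, at 154, 138 and 129 CPM in Tmem173fl/fl and 192, 165 and 152 CPM in Tmem173iΔmye tumors. The groups overlapped by the single highest control, and the log2 fold change was 0.27 (SE 0.14, unadjusted p = 0.0881). Trim21 had 17.4, 15.3 and 14.8 CPM against 25.8, 14.0 and 19.3 CPM, a log2 fold change of 0.32 (SE 0.24) that was 0.07 without Tmem173iΔmye replicate 1, with the lowest of all 6 values in a Tmem173iΔmye tumor. Trim56 and Trim26, the latter a ligase in antiviral signalling, were both at 0.09 on the log2 scale (SE 0.19 and 0.13). Trim14, a mitochondrial adaptor of RIG-I signalling that lacks the RING domain, was the listed member below 0, at -0.17 (SE 0.15), with 21.5, 21.7 and 23.5 CPM against 18.9, 18.2 and 22.0 CPM. The promoters of Trim21 and Trim26, printed above, held the pattern, as did 6 of the 10 promoters of the chromosome 7 cluster. Those of Trim6, Trim30b, Trim30c and Trim34b did not hold it.

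**Figure D3:**
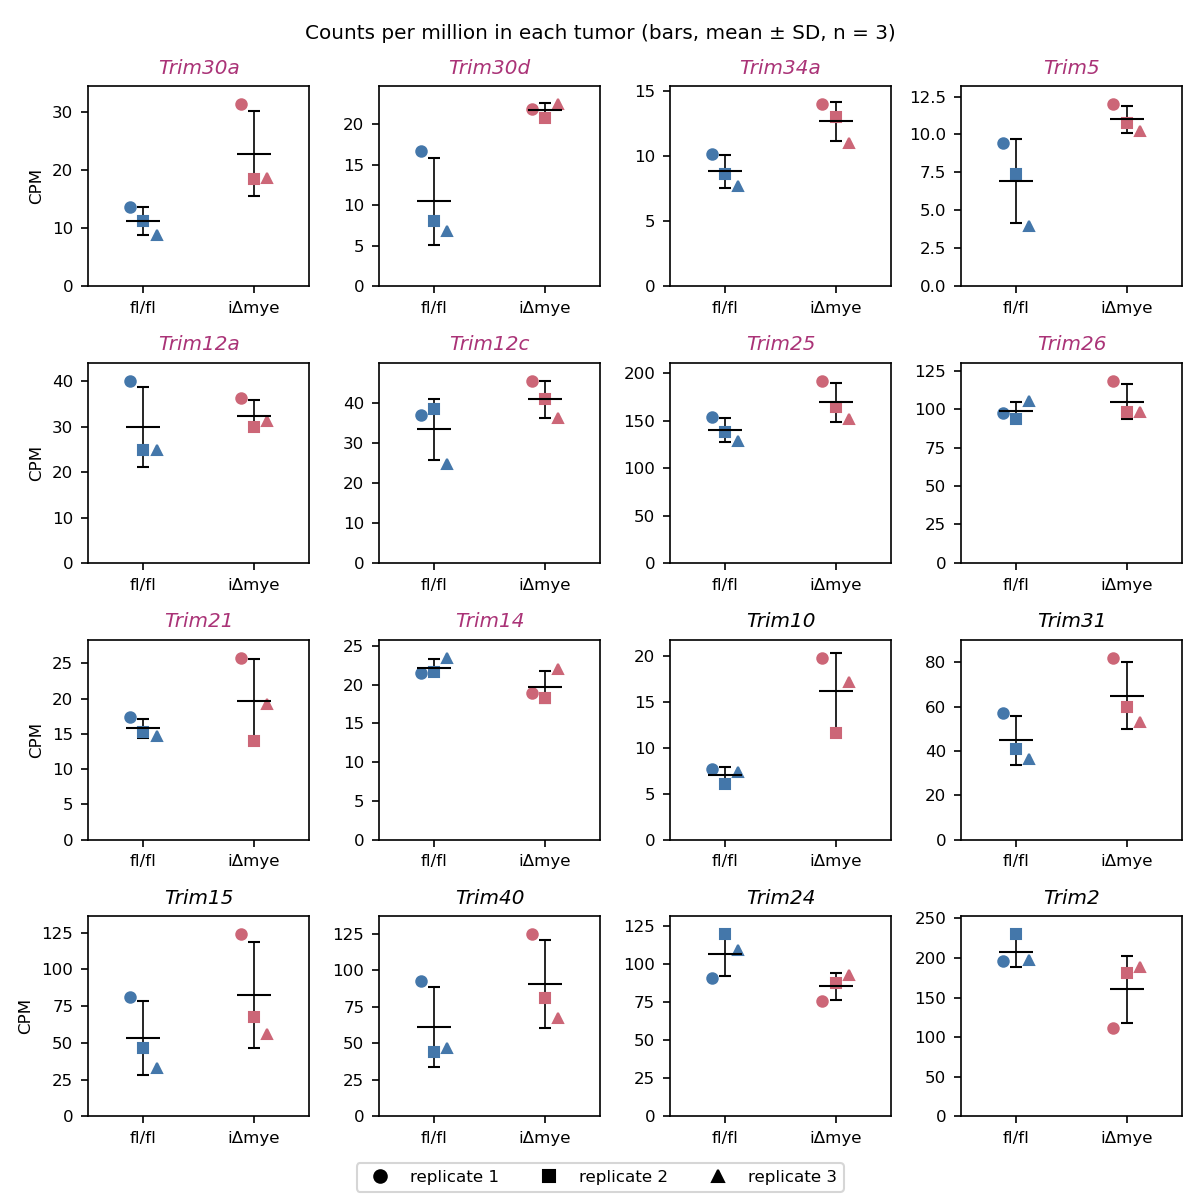
CPM in each tumor for 16 TRIM genes, with circles, squares and triangles for replicates 1, 2 and 3, the mean as a long bar and the SD as a whisker (n = 3), each vertical axis starting at 0, and names of the interferon-inducible list in purple. Trim30a, Trim30d, Trim34a, Trim5 and Trim10 show no overlap upward and Trim2 none downward. The circle of Tmem173iΔmye replicate 1 is the highest point in Trim10, Trim15, Trim31 and Trim40. It is also the highest in the listed Trim5, Trim12c, Trim21, Trim25, Trim26, Trim30a and Trim34a.

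The largest log2 fold change of all TRIM genes tested was outside the list, in a second cluster. Trim10, known from terminal red cell differentiation, lies on chromosome 17 (plus strand, 36869574 to 36877833) between Trim15 and Trim40. It had 7.67, 6.07 and 7.38 CPM in Tmem173fl/fl replicates 1, 2 and 3 and 19.8, 11.6 and 17.1 CPM in Tmem173iΔmye replicates 1, 2 and 3. All 3 controls were close together and the lowest Tmem173iΔmye tumor was clearly above them. The log2 fold change was 1.20 (SE 0.25, unadjusted p = 0.00142, adjusted p = 0.742, edgeR), and the adjusted p was 0.0213 with DESeq2. Its value was between 0.97 and 1.39 under all 16 alternatives and 1.02 without Tmem173iΔmye replicate 1, and it shared no 50-base stretch with another gene.

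Its neighbours on chromosome 17 (Trim26, Trim15, Trim40 and Trim31) were above 0 as well, with a median of 0.57 for the 5 genes together, 0.27 without Tmem173iΔmye replicate 1 and 1.0 without Tmem173fl/fl replicate 1. Trim31, an intestinal ligase that acts on MAVS and NLRP3 (plus strand, 36898118 to 36910214), had 57.2, 40.7 and 36.4 CPM against 82.1, 59.8 and 53.0 CPM, a log2 fold change of 0.54 (SE 0.23, unadjusted p = 0.0468) that was 0.33 without Tmem173iΔmye replicate 1 and then no longer past 0.05. Trim15, which regulates focal adhesions, had 81.1, 46.6 and 32.6 CPM against 124, 67.7 and 56.3 CPM, a log2 fold change of 0.63 (SE 0.39, unadjusted p = 0.147). Trim40, a gut-expressed member that restrains NF-κB signalling, had 92.6, 43.9 and 46.8 CPM against 125, 80.9 and 67.2 CPM, a log2 fold change of 0.57 (SE 0.34, unadjusted p = 0.129). These 3 genes had the same shape, in which replicate 1 was the highest tumor of either group and Tmem173fl/fl replicate 1 overlapped with the Tmem173iΔmye tumors. All 5 genes of the cluster were highest in Tmem173iΔmye replicate 1, against 4086 of all 16426 genes tested.

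The 8 epithelial markers were all above 0, at a median log2 fold change of 0.21, but 1 of 8 (Vil1) had an unadjusted p-value under 0.05 and groups that did not overlap. They were highest in Tmem173iΔmye replicate 1 for 5 of 8 genes, and their summed level was 9412 to 10591 CPM in Tmem173fl/fl and 10121 to 11875 CPM in Tmem173iΔmye tumors, also highest in replicate 1 of each group. Their part in the result was not tested. The 4 erythroid markers tested were below 0 with overlapping groups. In edgeR, 3 of these 4 (Hbb-bs, Hba-a1 and Alas2) had an unadjusted p-value under 0.05 downward, against 2.9% of all genes. These 3 also passed the threshold of the study downward, against 0.864% of all genes. The part of the erythroid markers in the value of Trim10 was not tested. Hemoglobin and other red cell genes had a summed level of 8.84, 62.9 and 148 CPM in the Tmem173fl/fl and 20.1, 7.88 and 18.6 CPM in the Tmem173iΔmye tumors, with a median log2 fold change of -2.01 over 4 genes tested. Trim58, the other red cell member, an E3 ligase of erythroblasts, had 65, 51 and 7 counts in Tmem173fl/fl and 50, 2 and 5 counts in Tmem173iΔmye tumors. Its log2 fold change was -1.15 (SE 1.12) and -3.54 without Tmem173iΔmye replicate 1, so that tumor decides its size. Tmem173fl/fl replicate 3, at 148 CPM of red cell genes, had 7 counts of Trim58. Replicate 1 of that group, at 8.84 CPM, had 65, and Tmem173iΔmye replicate 1, at 20.1 CPM, had 50. Tmem173fl/fl replicate 2 was high in both (62.9 CPM and 51 counts), and Tmem173iΔmye replicates 2 and 3 were low in both. The part of red cells in the value of Trim58 was not tested.

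The remaining members were grouped by what their C-terminal part or tissue is known for. Of the 30 other members tested outside the chromosome 17 cluster, 0 had an unadjusted p-value under 0.05 in edgeR. The chromatin regulators with a PHD finger and bromodomain (Trim24, Trim28 and Trim33; Trim66 was under the filter) were 3 of 3 below 0, at -0.32 (SE 0.15), -0.04 (SE 0.15) and -0.10 (SE 0.14). Trim24 had 91.2, 119 and 109 CPM against 75.8, 87.7 and 92.9 CPM, with an overlap of the groups and an unadjusted p of 0.0618. Of the NHL-repeat members, which bind RNA or act in neurons and muscle, Trim2 had 197, 230 and 197 CPM against 112, 181 and 189 CPM, a log2 fold change of -0.37 (SE 0.21, unadjusted p = 0.111). Its groups did not overlap, but Tmem173iΔmye replicate 1 was far below the others, and the log2 fold change was -0.17 without it. Trim3 and Trim32, of the same group, were at 0.11 (SE 0.16) and 0.05 (SE 0.18), and Trim71 was under the filter.

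Of 4 muscle members, only Trim72, a membrane repair protein of striated muscle, was tested, at 5.33, 1.60 and 3.84 CPM against 2.02, 0.756 and 1.91 CPM. Its log2 fold change was the most negative in the family, -1.20 (SE 0.55, unadjusted p = 0.0605), but at 12 to 82 counts per tumor, with overlapping groups and with 23.8% of its 50-base stretches shared with another gene, and it was -0.58 with limma on log2(FPKM + 1). Of the smooth muscle markers, 5 of 6 were below 0, at a median of -0.51 and a summed level of 287 to 411 CPM against 208 to 368 CPM, and 1 of 6 (Des) had an unadjusted p-value under 0.05 downward, against 2.9% of all genes. Of 6 striated muscle markers, Acta1 alone was tested, and it lay the other way, at 3.77, 1.53 and 1.92 CPM against 6.19, 3.84 and 3.88 CPM, a log2 fold change of 0.94 (SE 0.42) without overlap of the groups. The other 5 had at most 29 counts in a tumor, and 2 of them (Myh1 and Myh4) had 0 counts in every tumor. The part of muscle tissue in this value was not tested. Trim8, an abundant member of single architecture that regulates cytokine signalling, was at -0.16 (SE 0.13). Trim16, another abundant member, linked to autophagy of damaged membranes, was at -0.11 (SE 0.13). The cytoskeletal COS-domain members Trim36 and Trim46 were at 0.03 (SE 0.24) and 0.48 (SE 0.28), and the membrane-anchored Trim13 and Trim59 at 0.05 (SE 0.22) and 0.15 (SE 0.19). The 15 other members tested had log2 fold changes from -0.28 (Trim23) to 0.46 (Trim47), with overlapping groups in each.

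The 23 members under the filter are given by their counts alone. Of the interferon-inducible list, Trim30b had 66, 18 and 52 counts in Tmem173fl/fl and 89, 53 and 30 counts in Tmem173iΔmye tumors, and Trim34b had 14, 7 and 8 against 4, 10 and 8 counts. Trim38 had 0, 6 and 1 against 2, 3 and 2 counts. Trim30c was without a count in 3 Tmem173fl/fl tumors and had 4, 0 and 9 counts in Tmem173iΔmye tumors, where a group at 0 allows up to 3 counts per tumor, so no ratio is given. None of these 4 separated the groups. Of the 19 other members under the filter, 14 had some count, with at most 14 counts in any tumor (Trim55 and Trim17), and 5 had none (Trim50, Trim52, Trim54, Trim60 and Trim61), among them the muscle member Trim54. Trim69 had 2, 4 and 4 against 11, 0 and 0 counts, all of the second group's counts in replicate 1. Trim43c had 10, 13 and 10 against 2, 7 and 5 counts, so its groups did not overlap, with the Tmem173iΔmye tumors lower. At these low counts no ratio is given.

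Family members under other names did not follow the interferon-inducible list as a group. Pml, the interferon-inducible scaffold of nuclear bodies, had 46.1, 55.3 and 45.3 CPM against 57.8, 50.7 and 44.3 CPM, a log2 fold change of 0.06 (SE 0.15). Mefv, which encodes pyrin, was at 0.40 (SE 0.37), or 0.022 without Tmem173iΔmye replicate 1, and Mid2 at -0.21 (SE 0.15). Mid1, a microtubule-bound ligase on the X chromosome, had 7.48, 41.3 and 26.0 CPM against 8.84, 10.6 and 15.7 CPM. Its log2 fold change of -1.09 (SE 0.54, unadjusted p = 0.0803) came with higher values in the 3 tumors that lacked Y-linked counts, and it was -0.38 with the presence of Y-linked counts as a term and -0.52 without Tmem173fl/fl replicate 2.

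Interferon target genes outside the family gave a scale for these differences. All 15 reference genes (Isg15, Oasl2, Mx1 and others) were above 0, at a median log2 fold change of 1.34, and 14 of 15 had an unadjusted p-value under 0.05 in edgeR, against the 3.23% of all genes given above. Ifit3, an antiviral RNA-response gene, had 6.18, 5.07 and 3.24 CPM against 36.2, 11.2 and 15.7 CPM, a log2 fold change of 2.12 (SE 0.47). Usp18 and Xaf1, a deISGylase and an apoptosis regulator, were at 1.01 (SE 0.26) and 1.23 (SE 0.37). Without Tmem173iΔmye replicate 1, Xaf1 was at 0.67 and Usp18 at 0.93. All 10 genes of the interferon-γ reference were above 0, with a median of 1.71, but this value rests on Tmem173iΔmye replicate 1. Their median deviation from the 6-tumor mean, on the log2(CPM + 1) scale, was -0.16, -0.92 and -0.87 in the Tmem173fl/fl and 2.30, -0.38 and 0.02 in the Tmem173iΔmye tumors, and the groups did not overlap for 1 of the 10 genes (Irgm2). The median of the interferon-inducible TRIM list (0.29) was below both medians in the fit of all 6 tumors, and Trim30a and Trim30d, at 1.02 and 1.05, were within the range of the first reference list (0.47 to 2.12). Of the interferon genes and receptors, 6 of 8 were tested, with 3 of 6 above 0 and a median of -0.02, and Ifnb1 had 0 or 1 count per tumor.

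The sensors and adaptors on which TRIM proteins act had a median log2 fold change of 0.03, and a few of them were higher. Of 18 tested (among them Ddx58, Mavs, Tbk1, Irf3 and Traf6), 10 were above 0, 3 had an unadjusted p-value under 0.05 upward, against 3.23% of all genes, and 0 downward, against 2.9%. These 3 were Dhx58, an RNA sensor relative of RIG-I, at 1.06 (SE 0.32), Irf7, the interferon-induced transcription factor, at 0.95 (SE 0.32), and the kinase gene Ikbke at 0.36 (SE 0.14). Without Tmem173iΔmye replicate 1, Dhx58 was at 0.69 and Irf7 at 0.59, with Irf7 no longer past that limit. Every Tmem173iΔmye tumor was above every Tmem173fl/fl tumor for 4 of the 18 (Dhx58, Ikbke, Ifih1 and Irf3), against 6.03% of all genes, and below for 0, against 6.47%. Irf7 is also one of the interferon reference genes.

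**Figure D4:**
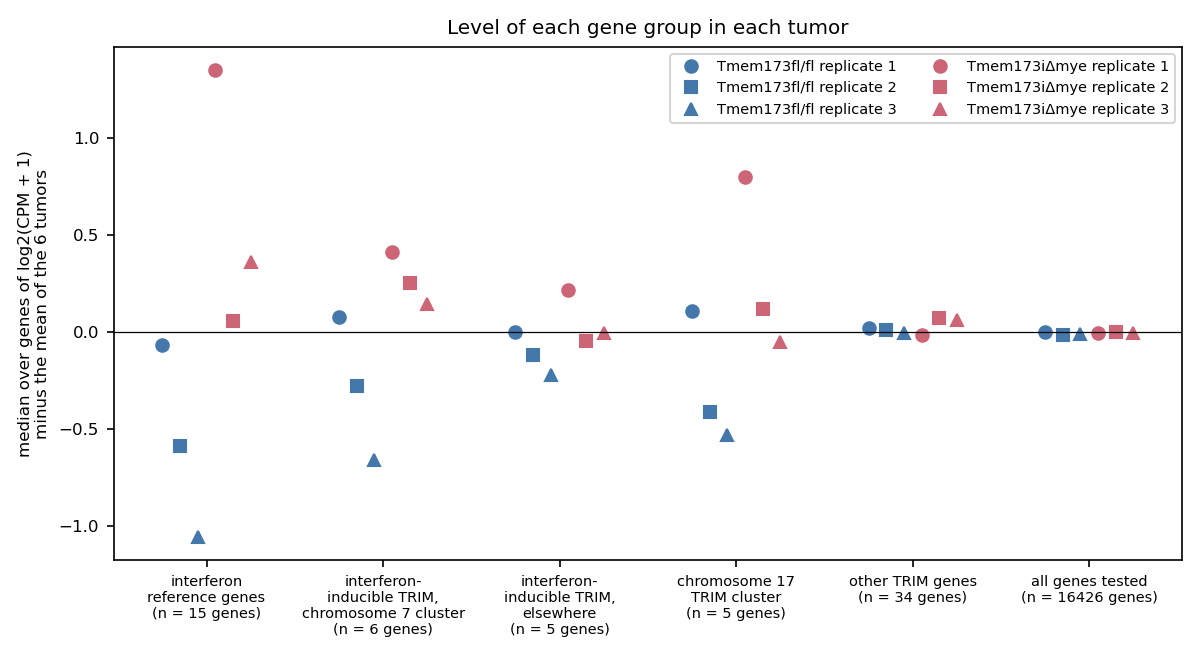
Level of each gene group in each tumor, as the median over its genes of log2(CPM + 1) minus the mean of the 6 tumors, with blue for Tmem173fl/fl, red for Tmem173iΔmye and a symbol for each replicate; Trim26 is in both the third and the fourth group. In the cluster of chromosome 7 the 3 red points (0.15 to 0.41) lie above the 3 blue ones (-0.66 to 0.08). The same holds for the interferon reference genes. The median of the 34 other TRIM genes stays between -0.02 and 0.07, and that of the chromosome 17 cluster runs from -0.53 to 0.80.

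Tumor by tumor, the listed members of chromosome 7 and the interferon reference genes put the tumors in nearly the same order. The median deviation of the reference genes from their 6-tumor mean, on the log2(CPM + 1) scale, was -0.06, -0.59 and -1.06 in the Tmem173fl/fl and 1.35, 0.06 and 0.36 in the Tmem173iΔmye tumors. For the 6 listed genes of chromosome 7 it was 0.08, -0.28 and -0.66 against 0.41, 0.25 and 0.15, so the order was the same but for Tmem173iΔmye replicates 2 and 3. In the listed members elsewhere it was 0.00, -0.12 and -0.22 against 0.22, -0.05 and 0.00, where only Tmem173iΔmye replicate 1 stood above the controls. In the chromosome 17 cluster, of which only Trim26 is listed, it was 0.11, -0.41 and -0.53 against 0.80, 0.12 and -0.05. In the T cell markers it was 0.30, -0.76 and -0.28 against 0.64, 0.31 and -0.13. A similar order was thus also seen in genes that are not on the list. Tumors with Y-linked counts (Tmem173fl/fl replicate 1, Tmem173iΔmye replicates 1 and 2) were above the others of their group for the listed chromosome 7 genes. The same held for the chromosome 17 cluster and the T cell markers. In the reference genes and the listed members elsewhere, Tmem173iΔmye replicate 2 was below replicate 3, which lacked such counts. The part of sex in these orders was not tested. The median over all other TRIM genes stayed between -0.02 and 0.07 in every tumor, but single members spread more widely. Of the 11 listed members tested, 7 were highest in Tmem173iΔmye replicate 1, as were 16 of all 45 TRIM genes. T cell markers were above 0 for 6 of 6 genes, with a median of 0.74 and a summed level of 10.1 to 21.5 CPM in Tmem173fl/fl and 15.7 to 29.0 CPM in Tmem173iΔmye tumors. Myeloid markers were above 0 for 5 of 7, with a median of 0.17, a summed level of 311 to 553 CPM against 282 to 497 CPM, and 2564 to 6301 counts of Lyz2. Their part in the level of the listed members was not tested.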

How the data were processed

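RNA-seq of 6 tumors (3 per group) was analysed from 1 table. The authors deposited raw counts for each gene and an FPKM table computed from them. The submitters' processing notes name CASAVA 1.8, fastp, HISAT2 2.0.5, featureCounts 1.5.0-p3, DESeq2 1.20.0 and GRCm38, and the strand setting of the counting was not given in the sources used here. FPKM values were rebuilt from the counts with a largest relative difference of 5.0e-07. The columns of the authors' comparison (group means, log2 fold changes, p-values) were not used. Genes were followed by identifier, since 27 names had been converted to dates.

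A mean FPKM of 0.5 was required of a gene. Counts were fitted with edgeR 4.0.16 (R 4.3.3), quasi-likelihood test, TMM scaling and a single term for the group, with Benjamini-Hochberg adjustment over all genes tested. The common biological coefficient of variation was 0.273, and SE was taken from the log2 fold change and its F statistic. Alternatives were DESeq2 1.42.0, limma 3.58.1 (voom, or on log2(FPKM + 1) and log2(FPKM + 0.1)), median-of-ratios scaling, no filter, a filter at a mean FPKM of 1, coding genes only, the replicate number as a block, the presence of Y-linked counts as a term, another extent of the interferon-inducible list and leaving out each tumor. The fit was tested on simulated counts. At 15329810 to 16533732 counts per tumor, genes with 3 counts or fewer have no usable fold change, and this covers counting error alone.

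The members and lists were chosen with earlier results of these data known. Genes named are the interferon-inducible list, other members with an unadjusted p under 0.05, the 6 other members with the highest mean FPKM, the 3 largest changes in each direction, Pml, Mefv, Mid1 and Mid2, the 3 genes of the partner and reference lists with the lowest p, and groups by domain. Genes named beyond these were chosen after their values were seen. Promoters came from RefSeq, and shared 50-base stretches and exon overlap from GENCODE M21.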

Additional observations from a re-analysis of the deposited data

How the results depend on the processing

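Counts of TRIM genes past a threshold moved with the processing, and directions mostly did not. The 3 TRIM genes past the study's threshold upward became 0 with limma on log2(FPKM + 1) and 1 with the presence of Y-linked counts as a term, and 1 to 5 when each tumor was left out, with 1 without Tmem173fl/fl replicate 3 and 5 without Tmem173fl/fl replicate 1. Downward, 0 became 1 without a filter, with DESeq2 and with the replicate block (Trim72 in each), and 0 to 1 when each tumor was left out. The 5 with an unadjusted p under 0.05 became 11 without a filter, 12 with the replicate block, 3 with the Y-linked term and 3 to 11 when each tumor was left out, lowest without Tmem173fl/fl replicate 3 or Tmem173iΔmye replicate 2 and highest without Tmem173fl/fl replicate 1. DESeq2 gave 1 an adjusted p under 0.05 (Trim10), where edgeR gave 0. The median of the other TRIM genes, 0.025, was -0.019 without a filter and 0.0059 to 0.085 when each tumor was left out. Without the chromosome 7 cluster the interferon-inducible list had a median of 0.093, with 4 genes above 0, and differed from the other TRIM genes by 0.068 in place of 0.27. This difference was 0.085 to 0.35 when each tumor was left out, lowest without Tmem173iΔmye replicate 1, and 0.16 with the Y-linked term. Apart from the shorter list, whose construction removes the cluster, the cause was not tested.

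Of 32 named genes with a fit, 28 kept their sign under every setting that fitted them. This was 16 settings, or 15 for Mefv and Trim58, which the filter at a mean FPKM of 1 left out. When each tumor was left out, Trim26 ranged from -0.013 (without Tmem173iΔmye replicate 1) to 0.14, Trim56 from -0.022 (without Tmem173fl/fl replicate 1) to 0.32, Trim28 from -0.14 to 0.053 (without Tmem173fl/fl replicate 2) and Pml from -0.043 (without Tmem173iΔmye replicate 1) to 0.16. Trim28 was 0.050 with the Y-linked term. Trim10 (adjusted p = 0.0213) and Ifit3 (adjusted p = 0.00484) passed an adjusted p of 0.05 with DESeq2.

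Whether the replicate numbers pair the tumors is not said in the labels, and the correlations do not settle it. Each tumor was taken as its difference from its group's mean. Across genes, the correlation between tumors with 1 number was 0.31, 0.0085 and 0.15 for numbers 1, 2 and 3. Between tumors of the 2 groups with different numbers it was -0.37 to 0.22. Tmem173fl/fl replicate 2 correlated best with Tmem173iΔmye replicate 3 (0.22). With the replicate block the medians were 0.28 for the interferon-inducible list and 0.027 for the other members.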
